A study of Mus musculus with 36 samples.

Results

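The genes described here (*Efna3*, *Dact3*, *Add3*, *Ankrd13a*, *Rab11fip1*, *Hspa2*, *Azin2*, *Cbarp*, *Evi5l* and *Tspyl4*) were higher with butyrate than with the control in every cell type studied. These 10 of the 54347 genes of the count table were chosen by their butyrate response in these same libraries, as the strongest rises common to the cell types, so their rises are given as a description and are not tested. Each gene was found by its mouse symbol, and all 10 passed the filter on low counts that left 15340 genes for testing. The cells were primary cells of male mice: adipocytes differentiated from the stromal vascular fraction of inguinal fat of pooled mice, macrophages grown from bone marrow, skeletal myotubes differentiated from myoblasts, and hepatocytes. The strain label was C57Bl/6 throughout, but the study's methods give C57BL/6NHsd for the hepatocyte donors, so that cell type and substrain cannot be told apart in comparisons with hepatocytes. Each was kept for 6 h with 5 mM butyrate (butyric acid sodium salt), 5 mM βOHB ((R)-3-hydroxybutyric acid sodium salt) or PBS as control, with 3 libraries in each of the 12 groups and 36 in all. Adipocytes and macrophages were treated in the same kind of medium and myotubes and hepatocytes each in another, so that cell type and medium cannot be told apart in comparisons with the last 2. The sources used here do not say that the 3 libraries of a group came from separate animals or cultures, so their spread may be technical.

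Butyrate is a short-chain fatty acid made by gut bacteria, and it inhibits histone deacetylases, the enzymes that take acetyl groups off histones and other proteins. With the enzymes inhibited, acetyl groups stay on chromatin, and many genes rise while many others fall. βOHB is the main ketone body of fasting and differs from butyrate by a hydroxyl group. It has been described as a weaker inhibitor of the same enzymes, but the study cites later work that could not find this inhibition in several cell types. The 10 genes have unlike roles. *Efna3* and *Dact3* act in signalling at the cell surface and in the Wnt pathway, *Add3*, *Rab11fip1*, *Evi5l* and *Ankrd13a* in the membrane skeleton and in the traffic of vesicles and receptors, *Hspa2* and *Azin2* in protein folding and polyamine control, *Cbarp* at calcium channels, and *Tspyl4* belongs to the NAP family of histone chaperones.

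The sequence just before RefSeq starts was read for the members from promoter windows of build GRCm38.p6, which held 13 windows of 8 members (none for *Azin2* and *Rab11fip1*). Of the 13 windows, 7 lay wholly and 2 partly inside the span of the gene in GENCODE M21, and 4 lay outside it. Both a GC-rich and an AT-rich promoter were among them. The GC box, written GGGCGG and read on both strands, lay within the 250 bases before the RefSeq start in 10 of the 13 member windows (76.9%), from 7 of the 8 genes, and in 32.7% of all 32851 windows. Of the 4 windows outside the gene span, 3 held it. The other motifs searched on both strands were CCAAT (4 of 13 windows, 33.8% of all), TATAAA (1 of 13, 12.4% of all), CACGTG (1 of 13, 6.02% of all) and TGACG (4 of 13, 17.8% of all). The G plus C content of the 13 windows ran from 36.8 to 79.2% with a median of 66.0%, against a median of 52.4% over all windows, and the median number of CpG dinucleotides was 18 against 6. Windows of 1 gene can overlap, and the windows of all genes include many of genes not expressed in these cells. Of the 4 stretches printed, *Dact3* at chr7:16875067-16875316 (plus strand) and *Evi5l* at chr8:4166317-4166566 (plus strand) hold 4 GC boxes each, *Efna3* at chr3:89322966-89323189 (minus strand) holds 2, and *Tspyl4* at chr10:34297171-34297420 (plus strand) holds 0. They are shown because they span the range from the largest to the smallest rises and from GC boxes to none, and capitals mark GC boxes. The *Efna3* stretch has 224 bases, since bases inside the annotated gene were left out, and the others have 250.
Efna3: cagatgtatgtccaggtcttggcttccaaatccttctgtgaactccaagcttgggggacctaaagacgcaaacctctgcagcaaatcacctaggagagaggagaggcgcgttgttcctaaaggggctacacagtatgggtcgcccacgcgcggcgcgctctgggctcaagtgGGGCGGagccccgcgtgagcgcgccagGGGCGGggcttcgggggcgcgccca
Dact3: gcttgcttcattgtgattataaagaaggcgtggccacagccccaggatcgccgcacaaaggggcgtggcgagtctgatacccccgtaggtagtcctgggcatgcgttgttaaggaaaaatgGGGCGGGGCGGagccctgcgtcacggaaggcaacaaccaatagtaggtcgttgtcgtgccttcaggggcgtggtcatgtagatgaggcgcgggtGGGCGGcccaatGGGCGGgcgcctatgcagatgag
Evi5l: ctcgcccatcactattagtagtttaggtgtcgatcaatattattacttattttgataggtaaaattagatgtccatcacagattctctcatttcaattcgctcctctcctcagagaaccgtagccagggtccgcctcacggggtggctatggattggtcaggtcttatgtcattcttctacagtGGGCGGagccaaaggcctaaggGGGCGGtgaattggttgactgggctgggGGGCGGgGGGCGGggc
Tspyl4: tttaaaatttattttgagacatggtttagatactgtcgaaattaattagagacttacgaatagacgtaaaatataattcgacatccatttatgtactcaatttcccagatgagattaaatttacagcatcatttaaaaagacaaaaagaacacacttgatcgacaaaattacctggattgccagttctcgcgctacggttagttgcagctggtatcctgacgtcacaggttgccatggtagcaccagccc

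Some facts of the whole series touch these genes. The libraries held 18366289 to 23221473 estimated counts, with a median of 22177562. The 6 markers fixed for each cell type, summed, were highest in the cells of that label: at least 6670.3 CPM (counts relative to library size, scaled by TMM) for adipocytes, 10339.9 for macrophages, 13117.2 for myotubes and 34461.4 for hepatocytes, against at most 141.8, 330.7, 56.4 and 571.7 CPM elsewhere. The value of 571.7 CPM was that of myotube butyrate replicate 2. With butyrate the macrophage markers in macrophages summed to 10339.9 to 10878.9 CPM, against 16581.0 to 16756.2 CPM in the controls, the myotube markers in myotubes to 13117.2 to 17809.1 against 20993.4 to 25840.3 CPM, and the adipocyte markers in adipocytes to 6670.3 to 8025.5 against 8614.1 to 9317.5 CPM, whereas the hepatocyte markers in hepatocytes summed to 42301.8 to 44521.3 against 37726.5 to 39686.8 CPM. The 6 hepatocyte markers (*Alb*, *Ttr*, *Apoa1*, *Serpina1a*, *Tat* and *Cps1*) summed to 0, 0.0881 and 0.176 CPM in the myotube controls, 0.184, 0.0444 and 24.7 CPM with βOHB and 31.8, 571.7 and 130.6 CPM with butyrate. In the same order the 6 macrophage markers summed to 260.8, 207.1 and 102.3 CPM, 55.8, 40.7 and 100.4 CPM, and 15.1, 65.9 and 24.3 CPM. Hepatocyte RNA at 1.31% of its own level, as these markers stood in butyrate replicate 2, would hold at most 3.15% of the level of a member there, and the highest was that of *Rab11fip1*. Without that library the log2 fold change of *Rab11fip1* in myotubes was 1.77 and the median over the 10 genes was 2.02. The 4 markers of fibroblasts summed to between 5335.5 and 9272.5 CPM in adipocytes and between 966.6 and 1704.0 CPM in macrophages. They summed to between 1117.2 and 1658.2 CPM in myotubes and between 15.2 and 24.3 CPM in hepatocytes. In the same order, 4 of endothelial cells summed to between 116.9 and 240.8, 42.6 and 59.2, 3.15 and 15.1, and 19.7 and 74.6 CPM. The endothelial markers summed to 116.9 to 134.3 CPM with butyrate against 176.1 to 201.9 CPM in the controls in adipocytes, and to 19.7 to 23.3 against 64.6 to 72.1 CPM in hepatocytes. For all these markers, their part in the results was not tested. In such bulk samples a change in the share of a cell type and a change in RNA per cell cannot be told apart.

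The rises under butyrate ran from 1.06 to 5.62 on the log2 scale, that is from 2.09-fold to 49.1-fold, with standard errors of 0.05 to 0.24. All 10 genes were above their controls in all 3 butyrate libraries of all 4 cell types, as were 13.3% of the tested genes, and above their βOHB libraries in all 4 cell types, as were 12.5% of the tested genes. The median rise of the 10 genes was 2.08 in adipocytes, 1.98 in macrophages, 2.01 in myotubes and 2.82 in hepatocytes. Over all tested genes the medians were 0.000, 0.000, 0.000 and -0.008. At an adjusted p under 0.05, butyrate raised 30.7% of the tested genes in adipocytes, 31.9% in macrophages, 33.1% in myotubes and 31.0% in hepatocytes, and 12.5% in all 4. Hepatocytes had the largest rise for 7 of the 10 genes and adipocytes for the other 3 (*Efna3*, *Rab11fip1* and *Cbarp*). The smallest rise was in myotubes for 4 genes, in macrophages for 3, in adipocytes for 2 and in hepatocytes for 1 (*Rab11fip1*). The plot of rises by gene and cell type shows this pattern.

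**Figure D1:**
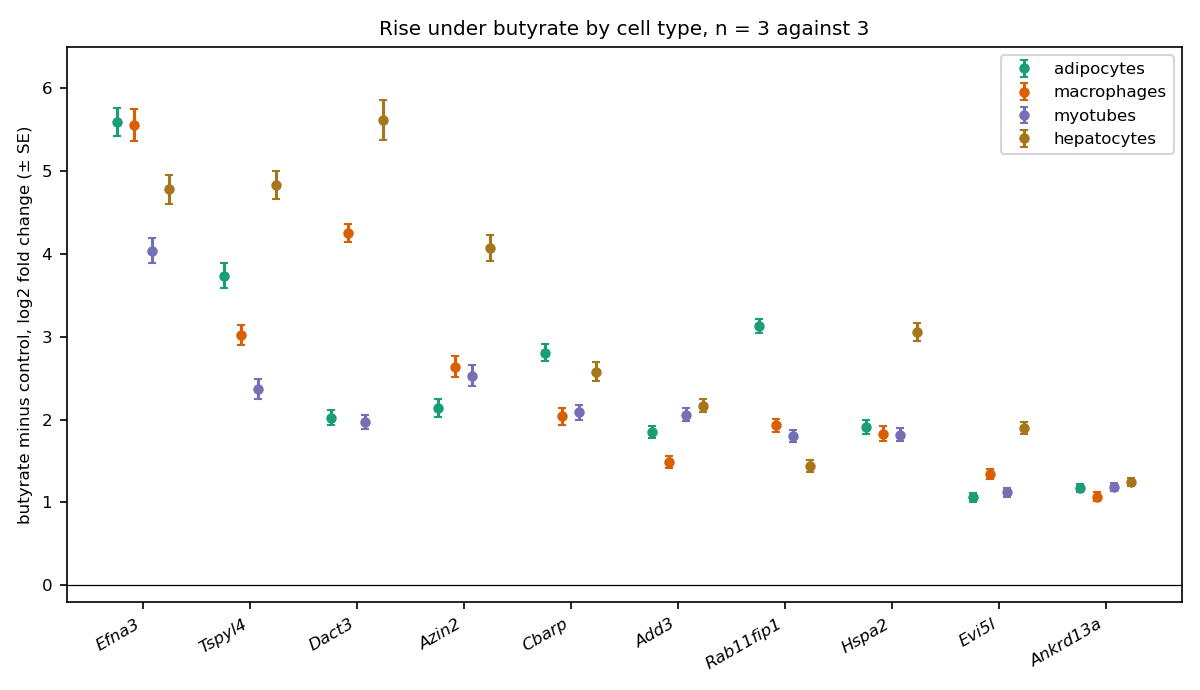
Butyrate minus control log2 fold change (vertical axis) of each of the 10 genes (horizontal axis, ordered by the median rise) in the 4 cell types (colours), with points at the edgeR estimate and bars of ± 1 SE, 3 libraries against 3. All 40 points lie above 0, between 1.06 (*Evi5l* in adipocytes) and 5.62 (*Dact3* in hepatocytes), and the 4 points of *Ankrd13a* lie within 0.18 of each other while those of *Dact3* span 3.65.

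The 10 genes were chosen by their butyrate response in these same libraries, so the 2 rankings below describe that choice and test nothing. By size alone the 10 genes were not the strongest common rises, whereas by size relative to error they nearly were. Ranked by the smallest log2 fold change over the 4 cell types, *Efna3* was 3, *Tspyl4* 62, *Azin2* 82, *Cbarp* 92, *Dact3* 113, *Hspa2* 143, *Add3* 227, *Rab11fip1* 244, *Ankrd13a* 427 and *Evi5l* 431 among the 15340 tested genes. Just above *Evi5l* (smallest rise 1.06) came *Crispld2* (1.07), *1700001L05Rik* (1.07) and *Snapc1* (1.06), and just below it *Fam117a* (1.06), *Pls1* (1.06) and *Pomgnt2* (1.06). The 421 other genes ranked above *Evi5l* had a median control level of 0.907 CPM, against 8.64 CPM for the 10 genes and 21.8 CPM for all tested genes. When each rise was divided by its standard error and the smallest quotient of the 4 cell types was ranked, the 10 genes filled ranks 2 to 11, from *Efna3* at 26.7 to *Evi5l* and *Tspyl4* at 19.5. This is the order in which they are listed at the start. Rank 1 was held by *H1f0* (32), which encodes a linker histone, and rank 12 by *Elovl5* (18.8), an enzyme that lengthens fatty acids. The plot of both quantities shows the 10 genes along its upper edge.

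**Figure D2:**
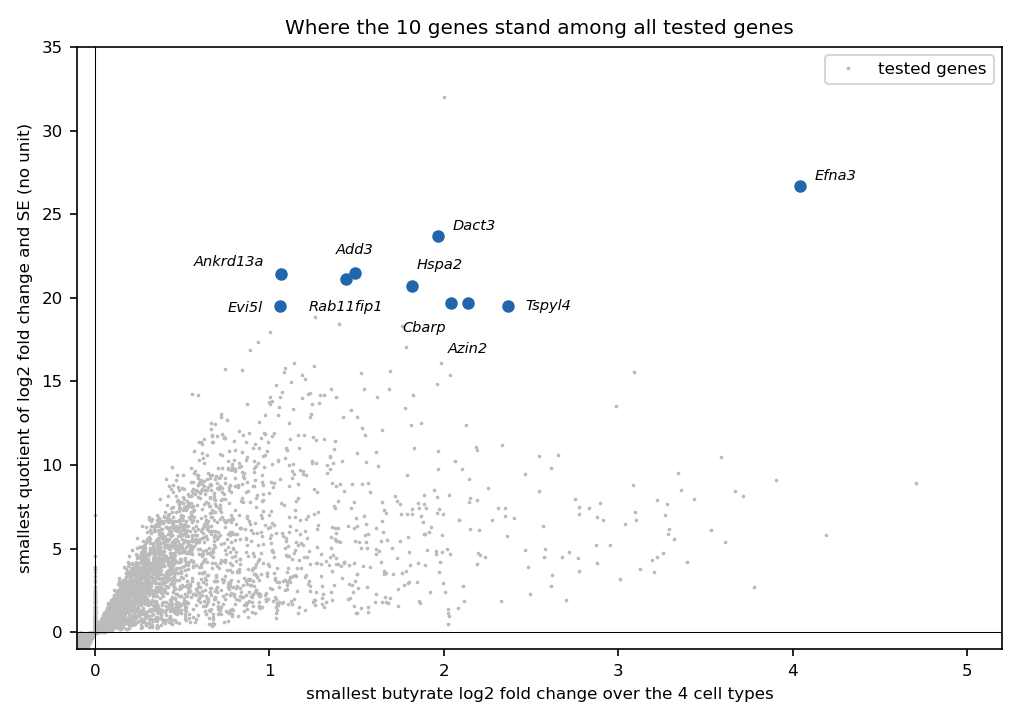
Each point is a tested gene, placed by its smallest butyrate log2 fold change over the 4 cell types (horizontal axis) and by the smallest quotient of fold change and SE (vertical axis, no unit); blue points are the 10 genes, and genes whose smallest fold change lies below the view are not shown. The 10 genes have quotients of 19.5 to 26.7, and the grey point above them at 32 is *H1f0*. The 10 genes were chosen by their butyrate response in these libraries, so their place is a description.

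*Efna3* had the largest rises of the 10 genes by the median over cell types (5.17). It encodes ephrin-A3, a ligand tethered to the cell membrane that binds Eph receptors of neighbouring cells (ENSMUSG00000028039, chr3:89313899-89322965, minus strand, GRCm38). In adipocytes, *Efna3* stood at 0.476, 0.603 and 0.464 CPM in the controls, 0.642, 0.529 and 0.766 CPM with βOHB and 24.5, 24.9 and 25.8 CPM with butyrate. In macrophages, *Efna3* stood at 0.0848, 0.504 and 0.476 CPM in the controls, 0.437, 0.328 and 0.629 CPM with βOHB and 16.8, 16.1 and 17 CPM with butyrate. Both cell types had *Efna3* under 1 CPM without butyrate and at 16.1 CPM or more with it, and macrophage control replicate 1 was the lowest library with 2 counts. In myotubes, *Efna3* stood at 1.01, 1.41 and 1.01 CPM in the controls, 1.01, 1.24 and 1.33 CPM with βOHB and 19.3, 17.4 and 20 CPM with butyrate. In hepatocytes, *Efna3* stood at 0.69, 0.799 and 0.532 CPM in the controls, 0.578, 0.632 and 0.468 CPM with βOHB and 19.2, 17.9 and 18.6 CPM with butyrate. The controls thus lay between 0.0848 and 1.41 CPM, the butyrate libraries between 16.1 and 25.8 CPM, and no group with butyrate overlapped its control. *Efna3* was higher with butyrate by a log2 fold change of 5.59 ± 0.17 (SE) in adipocytes, 5.56 ± 0.19 in macrophages, 4.04 ± 0.15 in myotubes and 4.78 ± 0.18 in hepatocytes, so that the highest and the lowest differed by 1.55. Adipocytes and macrophages lay within 1 SE of each other, followed by hepatocytes and then myotubes, whose controls were the highest. The ratio of the highest to the lowest cell type fell from 3.11 in the controls to 1.51 with butyrate. Such ratios, here and below, come from mean log2 CPM with a prior count of 2. *Efna3* had βOHB log2 fold changes of 0.34 ± 0.29, 0.41 ± 0.34, 0.06 ± 0.22 and -0.26 ± 0.32 (SE) in the same order of cell types, and their mean was 0.14 (95% confidence interval -0.16 to 0.44). Without macrophage control replicate 1, 2 or 3, the macrophage estimate was -0.08, 0.72 or 0.73. An antisense gene, *Gm15998*, shares 3469 bases of gene span with *Efna3*, introns included. The part of this in exons was not measured. The highest level of *Gm15998* in any library was 3.5 CPM. With butyrate *Gm15998* changed by -0.43, 1.53 and -1.78 on the log2 scale in adipocytes, myotubes and hepatocytes (adjusted p = 0.661, 0.142 and 7.6e-05), and in macrophages, where its controls were at 0, the adjusted p was 0.07. The protocol used here does not state whether strand was kept. Reads from any exon bases that the 2 genes share may thus not be told apart.

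*Dact3*, which encodes a Dishevelled-binding inhibitor of Wnt signalling (ENSMUSG00000078794, chr7:16875317-16887462, plus strand), differed most between cell types. In adipocytes, *Dact3* stood at 7.75, 8.75 and 9.12 CPM in the controls, 7.4, 8.57 and 9.78 CPM with βOHB and 35, 32.2 and 36.7 CPM with butyrate. In macrophages, *Dact3* stood at 1.65, 1.41 and 1.12 CPM in the controls, 1.4, 1.59 and 1.45 CPM with βOHB and 26.1, 27.7 and 26.4 CPM with butyrate. The 3 macrophage controls lay below the 3 adipocyte controls, and with butyrate the macrophage libraries were still the lower. In myotubes, *Dact3* stood at 14.8, 15.7 and 14.5 CPM in the controls, 14.4, 16.2 and 15.9 CPM with βOHB and 60, 59.1 and 56.4 CPM with butyrate. In hepatocytes, *Dact3* stood at 0.188, 0.123 and 0.0591 CPM in the controls, 0.0526, 0.0527 and 0.0585 CPM with βOHB and 6.09, 5.8 and 7.03 CPM with butyrate. In hepatocytes these were 3, 2 and 1 counts in the controls, 1 count in each βOHB library and 349 counts over the 3 butyrate libraries. *Dact3* was higher with butyrate by a log2 fold change of 2.02 ± 0.09 (SE) in adipocytes, 4.25 ± 0.11 in macrophages, 1.97 ± 0.08 in myotubes and 5.62 ± 0.24 in hepatocytes, so that the highest and the lowest differed by 3.65. The order was hepatocytes, macrophages, adipocytes and myotubes, and the last 2 lay within 1 SE of each other. The ratio of the highest to the lowest cell type, from mean log2 CPM with a prior count of 2, was 71.6 in the controls and 9.18 with butyrate. The prior count shrinks the first ratio. The mean CPM of the controls, 15 in myotubes and 0.123 in hepatocytes, lie further apart. From the summed hepatocyte counts alone, the ratio of butyrate to control was 51.3 (95% interval 23.3 to 140.7). That of βOHB to control was 0.446 (0.0721 to 2.09). These exact binomial intervals cover counting error only. They were still wider than the model intervals, 5.13 to 6.10 and -2.49 to 0.32 on the log2 scale, which are too narrow at so few counts. Without hepatocyte control replicate 1 or 3, the log2 fold change of butyrate in hepatocytes was 6.03 or 5.29. *Dact3* had βOHB log2 fold changes of 0.01 ± 0.09, 0.08 ± 0.17, 0.05 ± 0.08 and -1.09 ± 0.69 (SE) in the same order of cell types, and their mean was -0.24 (95% confidence interval -0.60 to 0.13).

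*Add3* encodes gamma-adducin, which caps actin filaments and joins them to the spectrin skeleton under the membrane (ENSMUSG00000025026, chr19:53140443-53247399, plus strand). In adipocytes, *Add3* stood at 51.1, 61 and 57.9 CPM in the controls, 53.4, 55.5 and 62.2 CPM with βOHB and 204.8, 204.6 and 202.8 CPM with butyrate. In macrophages, *Add3* stood at 33, 33.7 and 34.3 CPM in the controls, 32.4, 32.4 and 29.8 CPM with βOHB and 96, 93.5 and 95 CPM with butyrate. Its butyrate levels were at 93.5 CPM or more in both cell types and the controls did not exceed 61 CPM. In myotubes, *Add3* stood at 12.4, 11.4 and 12.4 CPM in the controls, 9.92, 10.8 and 10.5 CPM with βOHB and 48, 49.2 and 53.4 CPM with butyrate. In hepatocytes, *Add3* stood at 8.97, 9.84 and 10.1 CPM in the controls, 10.6, 7.58 and 9.41 CPM with βOHB and 43.7, 43.8 and 42.9 CPM with butyrate. In macrophages and in myotubes the 3 βOHB libraries were all below the 3 controls, and in adipocytes and hepatocytes these groups overlapped. *Add3* was higher with butyrate by a log2 fold change of 1.85 ± 0.07 (SE) in adipocytes, 1.49 ± 0.07 in macrophages, 2.06 ± 0.08 in myotubes and 2.17 ± 0.08 in hepatocytes, so that the highest and the lowest differed by 0.68. Hepatocytes and myotubes lay within 1 SE of each other, above adipocytes and macrophages. *Add3* had βOHB log2 fold changes of 0.01 ± 0.07, -0.09 ± 0.07, -0.21 ± 0.09 and -0.07 ± 0.10 (SE) in the same order of cell types, and their mean was -0.09 (95% confidence interval -0.17 to -0.01). The βOHB effect in myotubes had an unadjusted p of 0.0188 and an adjusted p of 0.232, and the mean over the cell types had an unadjusted p of 0.0322 and an adjusted p of 0.47 (edgeR's quasi-likelihood test, as for all p values here).

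*Rab11fip1* encodes an effector of the small GTPase Rab11 on recycling endosomes (ENSMUSG00000031488, chr8:27138773-27174646, minus strand). In adipocytes, *Rab11fip1* stood at 3.64, 3.45 and 3.46 CPM in the controls, 3.17, 3.81 and 4.05 CPM with βOHB and 32.3, 29 and 31.5 CPM with butyrate. In macrophages, *Rab11fip1* stood at 12.8, 15.4 and 14.1 CPM in the controls, 14.8, 16.5 and 14.4 CPM with βOHB and 53.5, 55.8 and 51.6 CPM with butyrate. Macrophages had the higher level in each treatment, but the rise was larger in adipocytes. In myotubes, *Rab11fip1* stood at 18.1, 19.2 and 19.5 CPM in the controls, 20.8, 20.3 and 20.8 CPM with βOHB and 69.8, 68.5 and 59.5 CPM with butyrate. In hepatocytes, *Rab11fip1* stood at 53.9, 64.3 and 63.8 CPM in the controls, 58.7, 61.7 and 60.7 CPM with βOHB and 160.4, 165.1 and 168.8 CPM with butyrate. Hepatocytes, with the highest control level, had the smallest rise, and adipocytes, with the lowest, the largest. *Rab11fip1* was higher with butyrate by a log2 fold change of 3.13 ± 0.09 (SE) in adipocytes, 1.93 ± 0.08 in macrophages, 1.80 ± 0.07 in myotubes and 1.44 ± 0.07 in hepatocytes, so that the highest and the lowest differed by 1.69. Macrophages and myotubes lay within 1 SE of each other. The ratio of the highest to the lowest cell type fell from 16.8 to 5.32. *Rab11fip1* had βOHB log2 fold changes of 0.06 ± 0.12, 0.11 ± 0.08, 0.12 ± 0.08 and -0.01 ± 0.07 (SE) in the same order of cell types, and their mean was 0.07 (95% confidence interval -0.02 to 0.16). All 3 myotube libraries with βOHB were above the controls, with an adjusted p of 0.521.

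*Evi5l* encodes a protein with a TBC domain, the domain of GTPase-activating proteins for Rab GTPases (ENSMUSG00000011832, chr8:4166567-4211257, plus strand), and *Ankrd13a* encodes an ankyrin-repeat protein that binds ubiquitin on receptors at the cell surface (ENSMUSG00000041870, chr5:114774677-114806200, plus strand). By the median over cell types these were the smallest rises of the 10 genes. In adipocytes, *Evi5l* stood at 20, 21.5 and 21.4 CPM in the controls, 21.6, 22.1 and 23.4 CPM with βOHB and 42.9, 46.1 and 42.4 CPM with butyrate. In macrophages, *Evi5l* stood at 12.1, 12.2 and 11.5 CPM in the controls, 12, 11.5 and 11.9 CPM with βOHB and 29.2, 30.4 and 30.9 CPM with butyrate. Each butyrate library was thus at least 42.4 CPM in adipocytes and at least 29.2 CPM in macrophages, above all others of its cell type. In myotubes, *Evi5l* stood at 17.7, 19 and 16.2 CPM in the controls, 17.9, 19.1 and 19.8 CPM with βOHB and 38.4, 39.4 and 37.2 CPM with butyrate. In hepatocytes, *Evi5l* stood at 4.2, 4.55 and 4.32 CPM in the controls, 4, 3.95 and 4.09 CPM with βOHB and 16.1, 16 and 16.6 CPM with butyrate. Hepatocytes had the lowest level of *Evi5l* in each treatment and the largest rise, and its βOHB libraries lay above the controls in adipocytes and below them in hepatocytes. *Evi5l* was higher with butyrate by a log2 fold change of 1.06 ± 0.05 (SE) in adipocytes, 1.34 ± 0.06 in macrophages, 1.12 ± 0.06 in myotubes and 1.90 ± 0.07 in hepatocytes, so that the highest and the lowest differed by 0.83. *Evi5l* had βOHB log2 fold changes of 0.09 ± 0.06, -0.01 ± 0.06, 0.10 ± 0.06 and -0.12 ± 0.09 (SE) in the same order of cell types, and their mean was 0.01 (95% confidence interval -0.05 to 0.08). *Prr36*, on the other strand, shares 1715 bases of gene span with *Evi5l*. With butyrate *Prr36* changed by 0.21, 1.89, 1.77 and -0.33 on the log2 scale from control levels of 0.249 to 1.25 CPM. In adipocytes, *Ankrd13a* stood at 94.1, 92 and 96.5 CPM in the controls, 95.3, 94.5 and 99.1 CPM with βOHB and 217.1, 215.0 and 205.0 CPM with butyrate. In macrophages, *Ankrd13a* stood at 221.8, 226.0 and 222.7 CPM in the controls, 227.5, 231.8 and 220.4 CPM with βOHB and 488.1, 467.1 and 456.7 CPM with butyrate. *Ankrd13a* was highest in macrophages, where its groups without butyrate differed by less than their spread. In myotubes, *Ankrd13a* stood at 67.5, 64.1 and 59.9 CPM in the controls, 63.2, 62.9 and 62.3 CPM with βOHB and 140.9, 139.1 and 156.3 CPM with butyrate. In hepatocytes, *Ankrd13a* stood at 53.4, 52.3 and 58.1 CPM in the controls, 55.3, 56.3 and 52.8 CPM with βOHB and 131.0, 123.1 and 135.9 CPM with butyrate. In all 4 cell types the βOHB libraries of *Ankrd13a* overlapped the controls. *Ankrd13a* was higher with butyrate by a log2 fold change of 1.17 ± 0.05 (SE) in adipocytes, 1.07 ± 0.05 in macrophages, 1.19 ± 0.05 in myotubes and 1.25 ± 0.05 in hepatocytes, so that the highest and the lowest differed by 0.18. Each neighbour in the order of its rises lay within 1 SE of the next. *Ankrd13a* had βOHB log2 fold changes of 0.03 ± 0.05, 0.02 ± 0.05, -0.02 ± 0.05 and 0.00 ± 0.05 (SE) in the same order of cell types, and their mean was 0.01 (95% confidence interval -0.05 to 0.06). *Git2*, on the other strand, shares 841 bases of gene span with *Ankrd13a*. With butyrate *Git2* changed by 0.12, -0.20, 0.14 and 0.12 on the log2 scale in adipocytes, macrophages, myotubes and hepatocytes.

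*Hspa2* encodes a chaperone of the HSP70 family that is best known from the testis (ENSMUSG00000059970, chr12:76404176-76406938, plus strand). In adipocytes, *Hspa2* stood at 14.4, 11.9 and 14.8 CPM in the controls, 13.1, 13.4 and 14.4 CPM with βOHB and 54.4, 48 and 52.1 CPM with butyrate. In macrophages, *Hspa2* stood at 8.48, 8.16 and 8.82 CPM in the controls, 8.69, 9 and 8.37 CPM with βOHB and 27.9, 29.9 and 32.6 CPM with butyrate. In both cell types the βOHB libraries overlapped the controls, and the butyrate libraries were at 27.9 CPM or more. In myotubes, *Hspa2* stood at 17.8, 16.3 and 20.9 CPM in the controls, 22.6, 23.1 and 21.5 CPM with βOHB and 67.3, 66.8 and 59.8 CPM with butyrate. In hepatocytes, *Hspa2* stood at 2.82, 2.77 and 3.02 CPM in the controls, 2.79, 2.47 and 3.1 CPM with βOHB and 23.7, 22.6 and 25.5 CPM with butyrate. The myotube libraries with βOHB were all above the 3 controls (lowest 21.5 CPM against highest 20.9 CPM), and hepatocytes had the lowest control level and the largest rise. *Hspa2* was higher with butyrate by a log2 fold change of 1.91 ± 0.08 (SE) in adipocytes, 1.83 ± 0.09 in macrophages, 1.82 ± 0.08 in myotubes and 3.06 ± 0.11 in hepatocytes, so that the highest and the lowest differed by 1.24. Adipocytes, macrophages and myotubes lay within 1 SE of their neighbours in the order. *Hspa2* had βOHB log2 fold changes of -0.01 ± 0.09, 0.03 ± 0.10, 0.29 ± 0.08 and -0.05 ± 0.15 (SE) in the same order of cell types, and their mean was 0.07 (95% confidence interval -0.04 to 0.18). In myotubes the βOHB effect had an unadjusted p of 0.00165 and an adjusted p of 0.0553, which is the smallest of the 10 genes. Control replicate 3, the highest of the controls, was also the control with the lowest sum of macrophage markers (102.3 CPM), whose part in the result was not tested. The βOHB effect on *Hspa2* passed the threshold with limma-voom (0.29, adjusted p = 0.0494) and when control replicate 3 was left out (0.39, adjusted p = 0.00437), and in the other 12 of 14 alternatives it did not. Over the 14 the log2 fold change ran from 0.21 to 0.39 and the adjusted p from 0.00437 to 0.383. Its difference between myotubes and the mean of the other cell types was 0.29 ± 0.11 (SE), with an adjusted p of 0.239.

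*Azin2* encodes antizyme inhibitor 2, which binds antizyme and so spares ornithine decarboxylase, the first enzyme of polyamine synthesis (ENSMUSG00000028789, chr4:128930233-128962442, minus strand). In adipocytes, *Azin2* stood at 15.9, 14.4 and 13.3 CPM in the controls, 14.2, 12 and 14 CPM with βOHB and 61.6, 62.9 and 68.5 CPM with butyrate. In macrophages, *Azin2* stood at 5.13, 4.99 and 4.37 CPM in the controls, 3.75, 3.56 and 3.87 CPM with βOHB and 29.1, 30.1 and 31.3 CPM with butyrate. In macrophages the βOHB libraries were all below the controls (highest 3.87 CPM against lowest 4.37 CPM). In myotubes, *Azin2* stood at 4.95, 5.5 and 3.56 CPM in the controls, 3.9, 4.18 and 4.12 CPM with βOHB and 28.7, 22.3 and 29.9 CPM with butyrate. In hepatocytes, *Azin2* stood at 1.44, 2.09 and 1.36 CPM in the controls, 2.05, 2.95 and 2.05 CPM with βOHB and 29.5, 24.3 and 28.4 CPM with butyrate. With butyrate, macrophages, myotubes and hepatocytes had levels of 22.3 to 31.3 CPM and adipocytes 61.6 to 68.5 CPM. *Azin2* was higher with butyrate by a log2 fold change of 2.14 ± 0.11 (SE) in adipocytes, 2.64 ± 0.13 in macrophages, 2.53 ± 0.13 in myotubes and 4.07 ± 0.16 in hepatocytes, so that the highest and the lowest differed by 1.92. Macrophages and myotubes lay within 1 SE of each other, and hepatocytes, with the lowest controls, had the largest rise. *Azin2* had βOHB log2 fold changes of -0.12 ± 0.12, -0.37 ± 0.16, -0.20 ± 0.15 and 0.53 ± 0.23 (SE) in the same order of cell types, and their mean was -0.04 (95% confidence interval -0.21 to 0.13). The βOHB effect had an unadjusted p of 0.0244 in macrophages and of 0.0265 in hepatocytes, with adjusted p values of 1 and 0.858, and the estimates had opposite signs. The test of any difference of the βOHB effect between cell types in edgeR gave an adjusted p of 0.461.

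*Cbarp* encodes a protein that binds the beta subunits of voltage-gated calcium channels and dampens the channels (ENSMUSG00000035640, chr10:80130451-80140835, minus strand). In adipocytes, *Cbarp* stood at 4.76, 4.22 and 3.5 CPM in the controls, 3.81, 3.75 and 4.14 CPM with βOHB and 28.7, 26.7 and 32 CPM with butyrate. In macrophages, *Cbarp* stood at 3.64, 4.13 and 3.68 CPM in the controls, 3.45, 3.61 and 2.81 CPM with βOHB and 14.9, 16.6 and 15.3 CPM with butyrate. The controls of both cell types were close, and butyrate brought adipocytes higher than macrophages. In myotubes, *Cbarp* stood at 13.5, 12.6 and 12.5 CPM in the controls, 12.4, 14.4 and 15 CPM with βOHB and 58.1, 48.6 and 57.7 CPM with butyrate. In hepatocytes, *Cbarp* stood at 3.83, 3.75 and 3.84 CPM in the controls, 4.05, 4.42 and 4.03 CPM with βOHB and 22.4, 23.4 and 22.3 CPM with butyrate. Myotubes had the highest level of *Cbarp* in each treatment, and the βOHB libraries lay below the controls in macrophages and above them in hepatocytes. *Cbarp* was higher with butyrate by a log2 fold change of 2.81 ± 0.10 (SE) in adipocytes, 2.04 ± 0.10 in macrophages, 2.09 ± 0.09 in myotubes and 2.58 ± 0.11 in hepatocytes, so that the highest and the lowest differed by 0.77. Myotubes and macrophages lay within 1 SE of each other. The ratio of the highest to the lowest cell type was 3.32 in the controls and 3.48 with butyrate. *Cbarp* had βOHB log2 fold changes of -0.09 ± 0.12, -0.21 ± 0.13, 0.12 ± 0.09 and 0.13 ± 0.13 (SE) in the same order of cell types, and their mean was -0.01 (95% confidence interval -0.13 to 0.11). *Cbarp* shares 2204 bases of gene span with *Atp5d* and 232 with *Stk11*, both on the other strand. With butyrate *Atp5d* changed by -0.03, 0.26, -0.08 and -0.30 on the log2 scale in the order of cell types above, and *Stk11* by -0.27, -0.24, 0.04 and -0.05.

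*Tspyl4* encodes a nucleosome assembly protein of the TSPY-like group (ENSMUSG00000039485, chr10:34297442-34301320, plus strand). In adipocytes, *Tspyl4* stood at 1.3, 0.862 and 1.6 CPM in the controls, 1.54, 1.22 and 1.98 CPM with βOHB and 17.2, 16.4 and 16.9 CPM with butyrate. In macrophages, *Tspyl4* stood at 3.6, 4.43 and 4.24 CPM in the controls, 3.06, 3.94 and 3.82 CPM with βOHB and 34.5, 33.5 and 31.8 CPM with butyrate. Macrophages were higher than adipocytes in each treatment. In myotubes, *Tspyl4* stood at 5.04, 4.05 and 5.15 CPM in the controls, 4.68, 4.71 and 3.9 CPM with βOHB and 26.7, 23.5 and 23.3 CPM with butyrate. In hepatocytes, *Tspyl4* stood at 0.815, 0.676 and 0.946 CPM in the controls, 0.736, 1.26 and 0.877 CPM with βOHB and 21.6, 22.6 and 25.6 CPM with butyrate. The controls ranged from 0.676 to 5.15 CPM over all cell types and the butyrate libraries from 16.4 to 34.5 CPM. *Tspyl4* was higher with butyrate by a log2 fold change of 3.74 ± 0.15 (SE) in adipocytes, 3.02 ± 0.12 in macrophages, 2.37 ± 0.12 in myotubes and 4.83 ± 0.17 in hepatocytes, so that the highest and the lowest differed by 2.46. No neighbours in this order lay within 1 SE of each other. The ratio of the highest to the lowest cell type fell from 5.35 to 1.97. *Tspyl4* had βOHB log2 fold changes of 0.34 ± 0.21, -0.18 ± 0.15, -0.10 ± 0.14 and 0.24 ± 0.29 (SE) in the same order of cell types, and their mean was 0.07 (95% confidence interval -0.14 to 0.28). The whole of *Tspyl4* (3879 bases) lies within the gene span of *Nt5dc1*, introns included, which is read from the other strand. *Nt5dc1* fell with butyrate in all 4 cell types (log2 fold changes of -0.43, -0.34, -0.50 and -0.58, each with an adjusted p under 0.05).

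**Figure D3:**
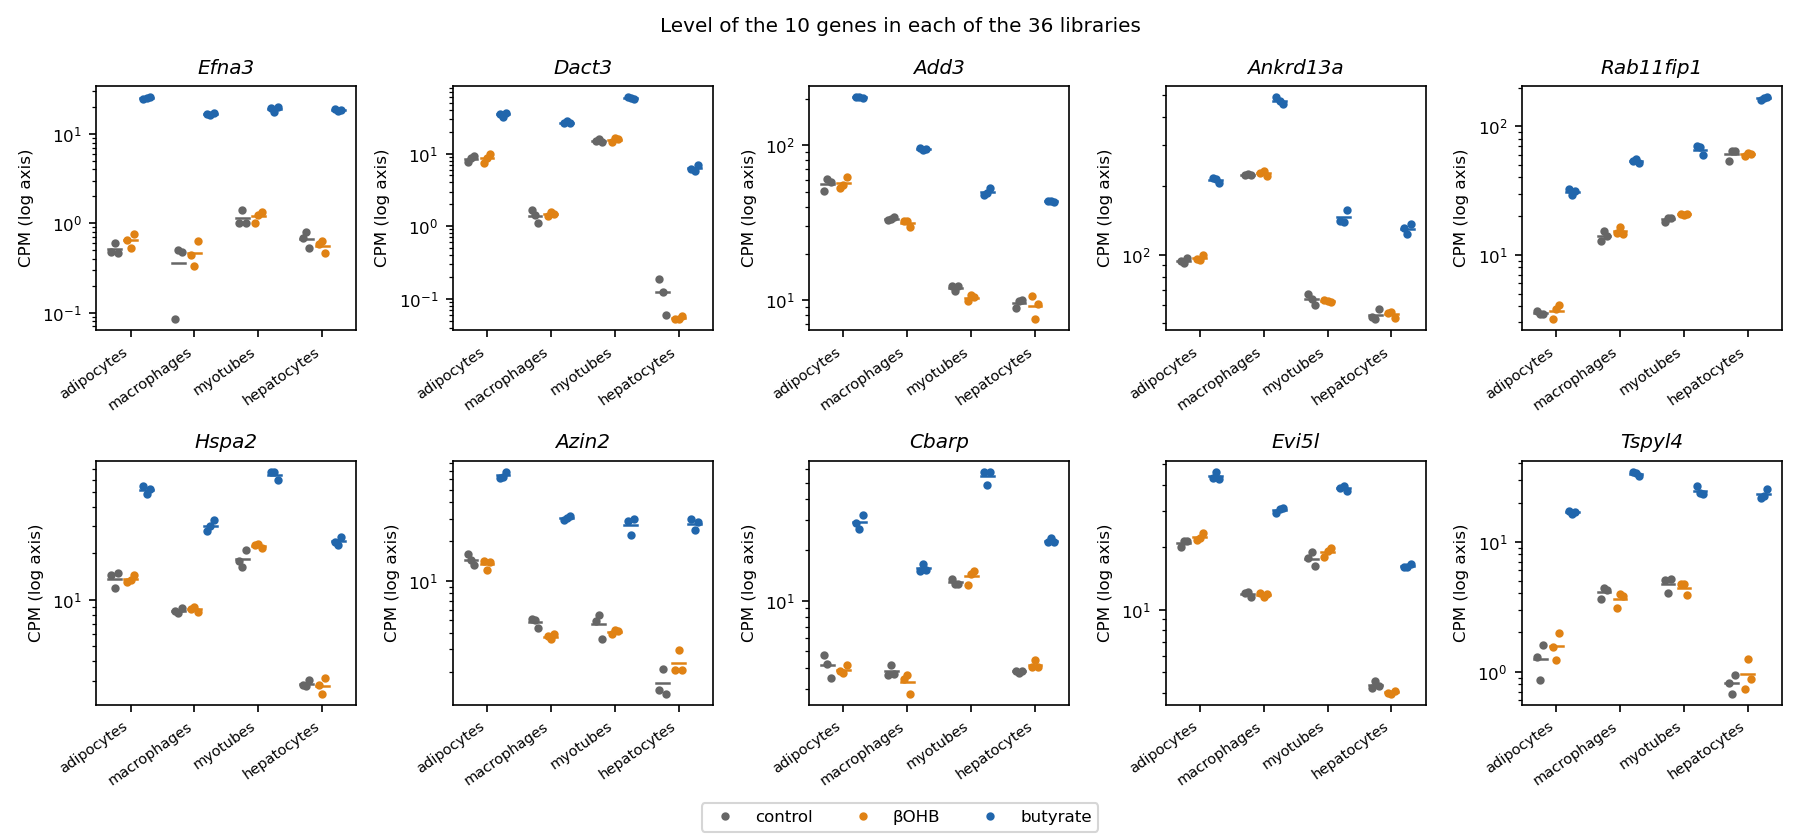
Level of each of the 10 genes in CPM (vertical axis, logarithmic) in the 36 libraries, by cell type (horizontal axis) and treatment (colours); each point is a library and each bar the mean of 3. In every panel and cell type the butyrate points lie above the other 6, and the control and βOHB points overlap in 30 of the 40 sets. The points spread most at low counts, as for *Dact3* in hepatocytes and *Efna3* in macrophages.

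Levels between genes were compared per kilobase of exon (RPKM, from the CPM and the summed exon length of the gene). In the controls *Ankrd13a* was the highest of the 10 genes in every cell type, at 15.7, 37.4, 10.7 and 9.13 RPKM in adipocytes, macrophages, myotubes and hepatocytes. The lowest were *Efna3* in adipocytes, macrophages and myotubes (0.211, 0.146 and 0.47 RPKM) and *Dact3* in hepatocytes (0.0413 RPKM). With butyrate *Efna3* reached 10.3, 6.82, 7.76 and 7.62 RPKM, and *Ankrd13a* stood at 35.5, 78.7, 24.3 and 21.7 RPKM, above the other 9 genes except in myotubes, where *Hspa2* had 24.4 RPKM. The SD of the group means of log2 CPM over the 4 cell types was smaller with butyrate than in the controls for all 10 genes, as for 65.1% of the tested genes. It fell from 2.78 to 1.37 for *Dact3*, from 1.27 to 0.60 for *Azin2* and from 0.68 to 0.25 for *Efna3*, and for *Ankrd13a* it went from 0.91 to 0.84.

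Under βOHB none of the 10 genes was called in any comparison by edgeR, and the controls were the same libraries as in the contrast that chose them. The 40 estimates, 1 for each gene and cell type, lay between -1.09 (*Dact3* in hepatocytes) and 0.53 (*Azin2* in hepatocytes), with 22 above 0 and 18 below. In 30 of the 40 pairs the βOHB libraries overlapped the controls, in 4 they lay above (*Evi5l* in adipocytes, *Rab11fip1* and *Hspa2* in myotubes, *Cbarp* in hepatocytes) and in 6 below (*Add3*, *Azin2* and *Cbarp* in macrophages, *Add3* in myotubes, *Dact3* and *Evi5l* in hepatocytes). Over all 61360 pairs of tested gene and cell type, βOHB lay above in 7.38% and below in 5.99%. The *Dact3* pair separates only after library scaling, since its lowest control had as many counts as the βOHB libraries. The median over the 10 genes was 0.02 in adipocytes, 0.00 in macrophages, 0.06 in myotubes and -0.03 in hepatocytes, beside butyrate medians of 2.08, 1.98, 2.01 and 2.82. The number of the 10 genes at an adjusted p under 0.05 was 0 in each cell type, where 0.00652% of all tested genes passed in adipocytes, 0% in macrophages, 2.91% in myotubes and 0.00652% in hepatocytes. It was also 0 for the mean over the cell types (0.0261% of all tested genes), for myotubes minus the mean of the others (1.06%) and for any difference between cell types (0.978%). At an unadjusted p under 0.05 there were 0 of 10 in adipocytes, 1 in macrophages (*Azin2*), 2 in myotubes (*Hspa2* and *Add3*) and 1 in hepatocytes (*Azin2*), against 7.15, 2.33, 13.7 and 5.51% of all tested genes. For the mean, the myotube difference and any difference it was 1 each (*Add3*, *Hspa2* and *Azin2*), against 9.67, 10.9 and 8.26%. DESeq2 called 0 in every comparison, and limma-voom 1, *Hspa2* in myotubes. The 95% interval of the mean over the cell types was -0.05 to 0.06 for *Ankrd13a*, -0.05 to 0.08 for *Evi5l*, -0.17 to -0.01 for *Add3*, -0.13 to 0.11 for *Cbarp* and -0.02 to 0.16 for *Rab11fip1*. It was -0.04 to 0.18 for *Hspa2*, -0.21 to 0.13 for *Azin2*, -0.14 to 0.28 for *Tspyl4*, -0.16 to 0.44 for *Efna3* and, widest, -0.60 to 0.13 for *Dact3*. The mean does not limit the effect in a single cell type. For *Azin2* it joins -0.37 in macrophages and 0.53 in hepatocytes. A difference between the butyrate and βOHB effects was not tested, since the butyrate effect chose the genes.

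**Figure D4:**
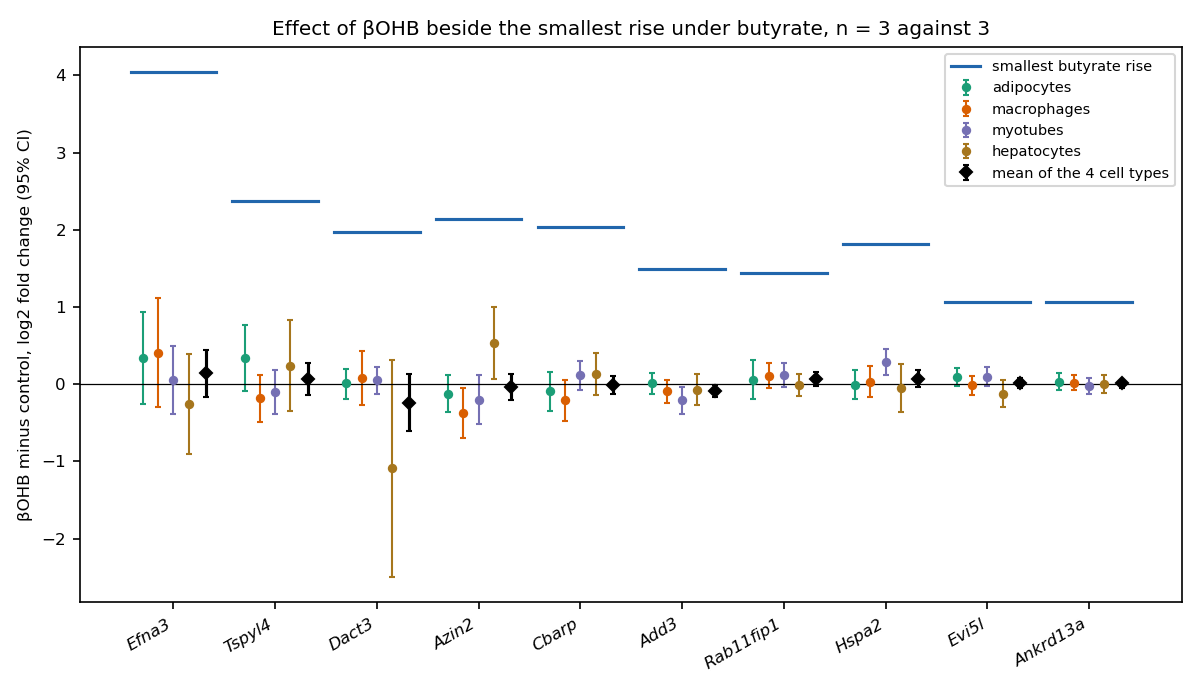
βOHB minus control log2 fold change (vertical axis) of the 10 genes in the 4 cell types (coloured points) and as the mean of the 4 (black), with 95% confidence intervals, 3 libraries against 3; the blue line is the smallest butyrate rise of the gene. Most intervals cross 0. The widest, of *Dact3* in hepatocytes, rests on 3 counts with βOHB and 6 in the controls and is narrower than counting error alone would give.

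The relatives of the 10 genes, 88 members of the same families and known partners of which 81 were tested, moved in both directions under butyrate. In adipocytes 43 rose and 14 fell, that is 53.1 and 17.3%, against 30.7 and 30.3% of all tested genes. In macrophages 44 rose and 17 fell (54.3 and 21%, against 31.9 and 33.2%), in myotubes 45 rose and 16 fell (55.6 and 19.8%, against 33.1 and 33.4%), and in hepatocytes 38 rose and 18 fell (46.9 and 22.2%, against 31.0 and 32.4%). Their median log2 fold changes were 0.47, 0.37, 0.42 and 0.36. In all 4 cell types 20 of the 81 rose and 7 fell, against 12.5 and 12.7% of all tested genes. Under βOHB 1 of the 81 was called, *Cacna1d* in myotubes (-2.26, adjusted p = 0.0102), where 2.91% of all tested genes passed. With library totals alone in place of TMM, 59 of the 81 rose and 9 fell with butyrate in macrophages (43.6 and 21.8% of all tested genes), and 52 rose and 10 fell in myotubes (40.9 and 25.2%).

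Within families the members often parted, and beyond the 8 genes the rule named, those given here were chosen after their values were seen. Of the 16 tested ephrins and Eph receptors related to *Efna3*, 10, 12, 12 and 9 rose in adipocytes, macrophages, myotubes and hepatocytes and 0, 1, 1 and 2 fell, where 30.7, 31.9, 33.1 and 31.0% of all tested genes rose and 30.3, 33.2, 33.4 and 32.4% fell. The ligand *Efna2* changed by 1.75, 2.76, 0.63 and 1.90 and the receptor *Epha7* by 1.54, 3.69, 1.02 and 3.80 on the log2 scale in that order, each with an adjusted p under 0.05 throughout. Control levels were low in hepatocytes (0.165 CPM for *Efna2* and 0.161 CPM for *Epha7*) and in macrophages (0.666 and 0.372 CPM). *Epha2* rose in adipocytes, macrophages and myotubes (0.68, 0.52 and 0.71) and fell in hepatocytes (adjusted p = 9.08e-09), where its controls were highest. Of the relatives of *Rab11fip1*, *Rab11fip4* rose in every cell type (1.99, 2.40, 3.79 and 3.90) whereas the GTPase *Rab11b* fell in every one (-0.97, -1.90, -1.16 and -1.77), as did *Rab11fip2*. The controls of *Rab11fip4* stood at only 0.214 CPM in adipocytes and 0.547 CPM in myotubes. Among the relatives of *Ankrd13a*, *Ankrd13d* rose in all 4 (3.27, 1.97, 1.83 and 4.09). Its largest rises, in adipocytes and hepatocytes, started from control levels of only 0.344 and 0.184 CPM. *Ankrd13c* fell in adipocytes, macrophages and myotubes (-0.21, -0.14 and -0.31) and stood at -0.03 in hepatocytes.

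In the HSP70 family of *Hspa2*, 7, 6, 6 and 8 of 12 rose in the 4 cell types and 3, 2, 2 and 3 fell, against the same 30.7, 31.9, 33.1 and 31.0% of all tested genes raised and 30.3, 33.2, 33.4 and 32.4% lowered. The stress-inducible *Hspa1a* changed by 2.04, 2.54, 1.87 and 3.34, but its reads can be split with the near-identical *Hspa1b*. *Hspa12a* changed by 1.33, 2.27, 1.60 and 4.37, the last with an SE of 0.46 and a control level of only 0.0611 CPM. The constitutive *Hspa8* fell in adipocytes (-0.63) and hepatocytes (-0.68). *Dact1*, a relative of *Dact3*, rose in all 4 cell types (0.83, 1.31, 1.42 and 1.49), and *Dact2* rose in 3 and was -0.06 in hepatocytes. Of the 10 tested polyamine genes around *Azin2*, 4 rose in all 4 cell types, as did 12.5% of all tested genes: *Azin1*, the antizyme gene *Oaz2*, *Amd1* and *Smox*. Spermidine synthase, *Srm*, fell in all 4 (-1.38, -0.67, -0.81 and -0.78). Of the nucleosome assembly genes related to *Tspyl4*, 10 in all, *Tspyl1*, *Nap1l2* and *Nap1l3* rose and *Set* and *Nap1l4* fell in all 4 cell types, as did 12.5 and 12.7% of all tested genes. *Nap1l2* changed by 1.48, 1.96 and 1.59 in adipocytes, macrophages and myotubes, from low control levels of 0.158, 0.968 and 0.593 CPM. In hepatocytes, with 0 counts in the controls and 0.318, 0.198 and 0.12 CPM with butyrate, it was at least 3.53-fold higher (against a floor of 3 counts over the 3 controls). Among the adducins *Add1* rose in adipocytes and macrophages and fell in hepatocytes, and the calcium channel beta subunit *Cacnb3* rose in all 4 cell types.

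**Figure D5:**
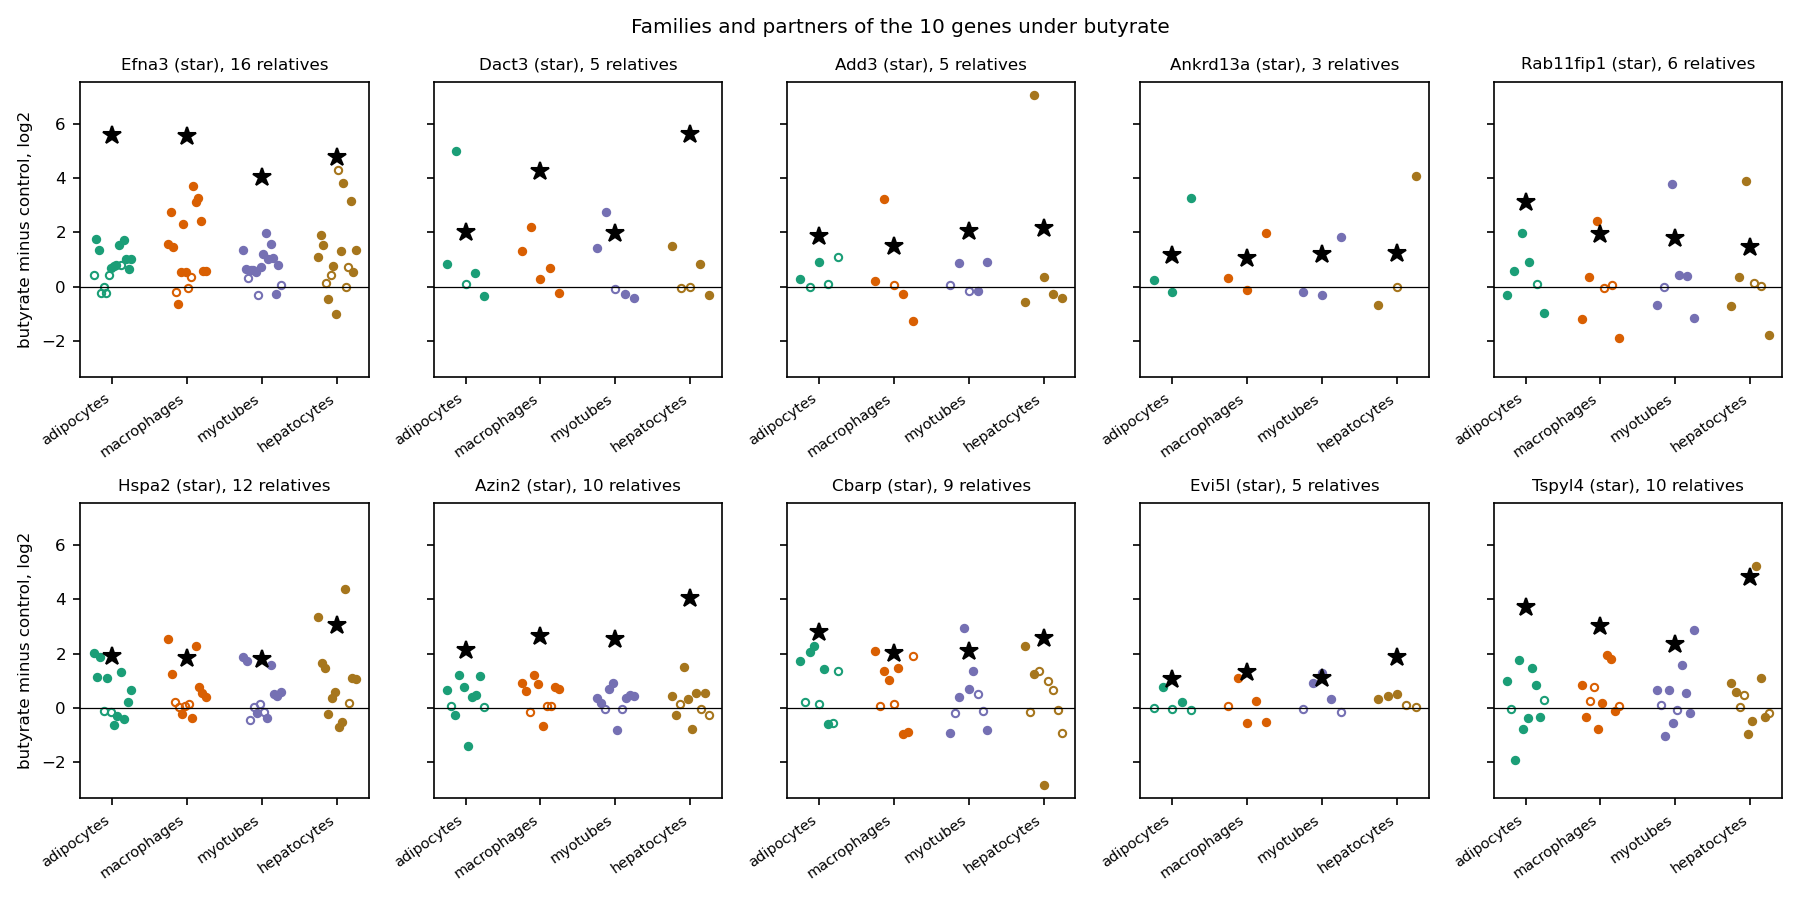
Butyrate minus control log2 fold change (vertical axis) of the tested relatives of each of the 10 genes (1 panel each) in the 4 cell types (horizontal axis and colours); filled points passed an adjusted p of 0.05, open points did not, and the star is the gene itself. The 16 relatives of *Efna3* lie mostly above 0, and those of *Rab11fip1* and *Tspyl4* lie on both sides. The highest point, *Add2* in hepatocytes, is a fitted value against controls with 0 counts; the counts give at least 12.6-fold.

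Outside the 10 genes, the tested gene whose 12 group means of log2 CPM were most like those of a member was *Atg101* for *Efna3* (Pearson r = 0.980), *Ankrd34a* for *Dact3* (0.988), *Ppard* for *Add3* (0.984), *Sept6* for *Ankrd13a* (0.987) and *Dyrk3* for *Rab11fip1* (0.972). It was *Camkk1* for *Hspa2* (0.978), *Dzank1* for *Azin2* (0.969), *Dpysl5* for *Cbarp* (0.986), *Kiss1r* for *Evi5l* (0.992) and *Gli1* for *Tspyl4* (0.973). Each is the highest value over all other tested genes, from points that share libraries and treatments.

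The nearest tested genes on either side of the 10 genes, leaving out genes that overlap them, are given as a description. These are 20 neighbours at up to 485312 bases, chosen after the values were seen. In adipocytes 8 of the 20 rose and 5 fell (30.7 and 30.3% of all tested genes), in macrophages 10 and 8 (31.9 and 33.2%), in myotubes 11 and 5 (33.1 and 33.4%), and in hepatocytes 9 and 6 (31.0 and 32.4%). In all 4 cell types, where 12.5% of all tested genes rose and 12.7% fell, 5 rose (*Mxi1* beside *Add3*, *Tchp* and *1500011B03Rik* beside *Ankrd13a*, *Trim62* beside *Azin2* and *Tspyl1* beside *Tspyl4*) and 3 fell (*Zbtb1* beside *Hspa2*, *Midn* beside *Cbarp* and *Trappc5* beside *Evi5l*). *Zbtb1*, 7226 bases from *Hspa2*, changed by -1.24, -1.12, -1.11 and -1.32 on the log2 scale in adipocytes, macrophages, myotubes and hepatocytes, while *Hspa2* changed by 1.91, 1.83, 1.82 and 3.06. The ephrin genes *Efna1* and *Efna4*, on either side of *Efna3*, rose in 3 cell types each, and stood at 0.43 in adipocytes (adjusted p = 0.129) and 0.30 in myotubes (adjusted p = 0.0902), respectively.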

How the data were processed

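Paired-end RNA-seq measured 36 libraries. The authors assigned the reads with Salmon 1.2.1 to GENCODE M25 transcripts (GRCm38.p6), summed them per gene with tximport and deposited expected counts, unscaled for library size. Of the values above 0, 55.6% are whole. Names and positions came from GENCODE M21, which held 54094 of the 54347 genes, and promoter windows from RefSeq.

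After rounding, edgeR 4.0.16 (R 4.3.3) fitted 1 quasi-likelihood model of 12 group means to the 36 libraries, with TMM scaling, for genes above 1 CPM in 6 or more libraries, and p values were adjusted by Benjamini-Hochberg over every tested gene. Log2 CPM had a prior count of 2. An SE is the size of the fold change divided by the square root of its F value, and "within 1 SE" means that ranges of ± 1 SE overlapped. Exact permutation of 3 against 3 libraries has a smallest p of 0.1 and was not used. Totals of 18366289 to 23221473 set the precision. Confidence intervals of fold changes come from the model and are meant to include the spread between libraries. The binomial intervals of summed counts and the floors cover counting error only. At few counts the model intervals and SEs can still be too narrow. For *Dact3* in hepatocytes the model intervals were narrower than the binomial ones.

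The members and lists were chosen with earlier results of these data known. Named were the 10 genes, up to 8 relatives called in 1 direction in all 4 cell types (by median size of change), the most alike gene of each, and 3 genes on either side of the lowest rank. Alternatives were RLE scaling, library totals alone, other filters, DESeq2 1.42.0, limma-voom (limma 3.58.1), separate fits per cell type, a block for the replicate number, leaving out single libraries, and a prior count of 0.5.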

Additional observations from a re-analysis of the deposited data

How the results depend on the processing

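The 4 median rises of the members kept their sign under every alternative. With library totals alone in place of TMM they were 2.17, 2.21, 2.15 and 2.89 in adipocytes, macrophages, myotubes and hepatocytes, where the median of all tested genes shifted to 0.07, 0.20, 0.13 and 0.01. The relatives lowered by butyrate then numbered 9 in macrophages and 10 in myotubes, against 17 and 16, and those raised 59 and 52, against 44 and 45. Without a filter on low counts the myotube median was 1.95, and in a fit of hepatocytes alone their median was 2.85. With each library left out in turn, the medians ranged from 2.03 to 2.12, 1.93 to 2.05, 2.00 to 2.02 and 2.80 to 2.84, the relatives raised from 41 to 44, 43 to 44, 42 to 46 and 36 to 42, and the relatives lowered from 13 to 14, 14 to 15, 13 to 17 and 17 to 19.

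The number of members called under βOHB was 0 in 146 of 149 alternatives over the 7 comparisons. In myotubes it was 1 with limma-voom, and it ranged from 0 to 1 when each library was left out. For myotubes minus the other cell types it also ranged from 0 to 1. In myotubes the gene was *Hspa2*, and the library left out was myotube control replicate 3 in both comparisons. The cause of these changes was not tested. The single rises kept their sign in all 560 alternatives. The lowest rank of a member by its smallest rise was 457 with library totals alone and 417 with limma-voom, against 431. With a prior count of 0.5 in place of 2, the mean log2 CPM of *Dact3* in the hepatocyte controls was -2.87, against -2.25. Without *Hspa1a* and *Hspa1b*, a choice made after seeing the data, 41, 42, 43 and 36 relatives rose.

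The replicate numbers did not mark shared batches in the labels, and deviations of same-numbered libraries correlated by -0.264 to 0.273. With the number as a block the median rises were 2.08, 1.98, 2.01 and 2.82, and 0 members were called under βOHB in each comparison. Depth limits *Dact3* in hepatocytes, with 6 counts over the 3 controls, and *Efna3* in macrophages, with 23.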
